A study of Mus musculus with 2 samples.

Results

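The genes described here encode 10 large chaperones and heat shock proteins: Hspa8, Hspa1a, Hspa1b, Hspa5, Hsph1, Dnajb1, Hsp90ab1, Hsp90aa1, Hspd1 and Hspe1. They were chosen by name, by matching gene identifiers without their version suffix to these symbols, and all 10 were found among 43346 gene rows. Total RNA had been sequenced from 2 single mouse hearts at embryonic day 14.5, of the strain B6NCrl, with no treatment or altered allele given in the labels. Replicate 1 was collected on day 15 and replicate 2 on day 17 of the same month, so embryo and collection day cannot be told apart, and the labels give the sex as pooled male and female although each library came from 1 heart. Both hearts form 1 group, so the values describe levels in the E14.5 heart and the difference between 2 embryos, with no test.

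Chaperones bind unfolded stretches of other proteins and release them for folding, refolding or degradation. HSP70 proteins do so in a cycle of ATP hydrolysis, which J-domain proteins start and HSP110 proteins help to reset, while HSP90 acts later, on kinases, steroid receptors and, with dedicated partners, muscle myosin. Mitochondria have a chaperonin chamber of HSP60 closed by HSP10, and the endoplasmic reticulum has its own HSP70, known as BiP. Some of these genes are constitutive, and others are known for their induction by heat shock factors, which bind arrays of the unit GAA and its complement TTC.

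Sequences around annotated starts were read for the members listed in the promoter table of RefSeq (GRCm38.p6), and distances are counted from the starts in that table. A gene can have starts farther upstream in GENCODE M21, so a stretch before a RefSeq start can lie in annotated transcribed sequence. That holds for all 30 bases of the Hspa5 stretch and of the stretch shared by Hspe1 and Hspd1 (within Hspd1) and for 26 of 30 bases of the first Hsph1 stretch, but for 0 of the 250 bases of Hspa1a and Hspa1b. It held 7 of the 10, with 10 windows of 300 bases, and Hspa8, Hsp90aa1 and Hsp90ab1 were not read. Hspa1a and Hspa1b are shown over 250 bases because these stretches are nearly the same, as are the genes themselves. The capitals mark 2 adjoining heat shock units, which lie 104 to 97 bases before each start.
Hspa1a, chr17:34972157-34972406, minus strand: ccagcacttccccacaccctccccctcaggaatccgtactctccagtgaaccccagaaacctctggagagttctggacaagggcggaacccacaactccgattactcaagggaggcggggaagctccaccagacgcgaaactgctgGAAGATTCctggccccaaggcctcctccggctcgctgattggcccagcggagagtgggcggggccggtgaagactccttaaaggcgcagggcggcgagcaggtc
Hspa1b, chr17:34959239-34959488, minus strand: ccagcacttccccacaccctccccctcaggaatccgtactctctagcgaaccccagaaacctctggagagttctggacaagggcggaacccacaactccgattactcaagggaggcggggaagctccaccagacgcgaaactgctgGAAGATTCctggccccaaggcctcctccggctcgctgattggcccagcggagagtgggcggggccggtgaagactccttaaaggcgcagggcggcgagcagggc
These stretches differed at 3 of 250 bases (98.8% identical). The coding sequences of the pair, aligned end to end from GENCODE M21, had 8 mismatches and 3 gap bases in 1926 columns (99.4% identical).

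Shorter stretches are shown for the other members in which a searched motif was found. For Hspe1 and Hspd1, which face away from each other, they are the same bases read on opposite strands, and the capitals mark the run of heat shock units.
Hspe1, chr1:55088053-55088082, plus strand: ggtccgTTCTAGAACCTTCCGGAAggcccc
Hspd1, chr1:55088053-55088082, minus strand: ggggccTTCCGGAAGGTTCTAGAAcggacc
Hsph1 had matches on either side of its RefSeq start at 149636336, also in capitals, and both lie within the bounds of the gene in GENCODE M21.
Hsph1, chr5:149636351-149636380, minus strand: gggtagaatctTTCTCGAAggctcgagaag
Hsph1, chr5:149636287-149636308, minus strand: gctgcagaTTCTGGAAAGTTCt
For Hspa5 the capitals mark an endoplasmic reticulum stress element, known as a binding site of factors of the unfolded protein response.
Hspa5, chr2:34772020-34772049, plus strand: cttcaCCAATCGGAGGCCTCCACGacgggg
The pattern of 2 heat shock units (GAANNTTC or TTCNNGAA, each the same on both strands) was in the windows of 5 of 7 members and of 17.0% of 27025 genes. A run of 3 units (GAA, any 2 bases, TTC, any 2 bases and GAA, or its complement, searched on both strands; it contains the shorter pattern) was found for Hspd1, Hspe1 and Hsph1, and for 0.662% of all genes. The stress element (CCAAT, any 9 bases and CCACG, on either strand) was found for Hspa5, and for 0.137% of all genes. The members are not separate cases in these counts, because the matches of Hspd1 and Hspe1 are the same bases. The stretches of Hspa1a and Hspa1b are also nearly the same. A match is a description of letters in the window, and Dnajb1 had none of these patterns in its window.

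The libraries held 2.85e+07 expected counts in replicate 1 and 2.90e+07 in replicate 2, of which 2.75e+07 and 2.79e+07 lay on genes. A count on a transcript of 1 kb equalled 0.0478 TPM in replicate 1 and 0.0475 TPM in replicate 2. Cardiomyocyte markers summed to 25425 TPM in replicate 1 and 25783 TPM in replicate 2, with 6 of 6 at 1 TPM or more, whereas none of the liver or lung markers reached 1 TPM in both hearts. Erythroid markers (6 of 6 at 1 TPM or more) were 1.74-fold higher in replicate 1, at 34024 TPM against 19599 TPM in replicate 2. In bulk tissue, fewer cells of a type and less RNA per cell cannot be told apart.

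Members of the set ranged from among the most abundant transcripts of the heart to the limit of detection. A level of 1 TPM or more in both hearts was reached by 9 of the 10, and 100 TPM or more by 6 of them, while 1289 of all 43346 genes reached 100 TPM in both. Together the members held 0.512% of gene counts in replicate 1 (0.510 to 0.515%, Wilson 95% interval) and 0.488% of those in replicate 2 (0.486 to 0.491%), where the intervals cover counting error only. The order by mean TPM (a level scaled by transcript length and library) was Hspa8, Hsp90ab1, Hsp90aa1, Hspa5, Hspd1, Hspe1, Dnajb1, Hsph1, Hspa1a and Hspa1b. Only the neighbours Hsp90aa1 and Hspa5 had ranges that overlapped between the hearts.

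**Figure D1:**
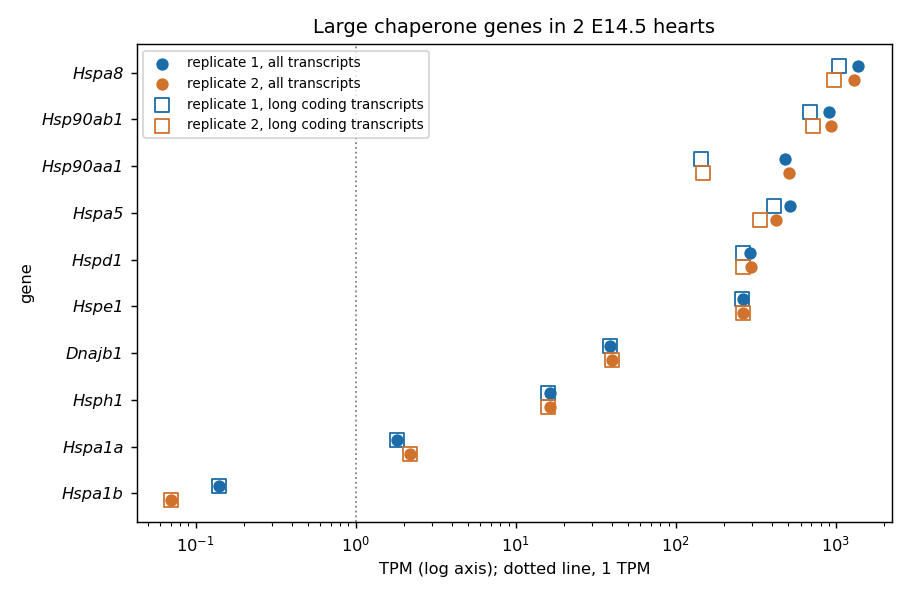
Level of each of the 10 members in TPM on a log axis, with a filled point per heart for the whole gene, an open square for its long coding transcripts alone (at least 70% as long as the longest coding one) and a dotted line at 1 TPM. Hspa8 is at the top, with 1302 TPM in its lower heart, and Hspa1b is at the bottom, below 1 TPM in both.

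Hspa8 encodes Hsc70, the constitutive cytosolic HSP70, and was the most abundant member. Its gene lies on chromosome 9 from 40800984 to 40810087 on the plus strand (GRCm38, GENCODE M21) and has up to 9 exons. It had 1373 TPM in replicate 1 and 1302 TPM in replicate 2 (1338 ± 49.9 TPM, SD, n = 2), from 46984 and 43846 expected counts. That placed it 85th among the gene rows by mean TPM. The log2 difference, replicate 1 over replicate 2, was 0.15 (95% counting interval 0.14 to 0.17), and 30.8% of genes that averaged 100 counts or more differed as far or farther. Of genes that averaged 1000 counts or more, 17.7% did. Of the distinct 25-base words of its transcripts, 46.8% also occurred in other genes, and of the 100-base words 28.5% did. Among the gene models that shared most, Gm15459 had 28.4 counts in replicate 1 and 28.9 in replicate 2, Gm26825 had 754 and 652 counts, and Gm8355 had 698 and 624 counts. These are small beside the counts of Hspa8 itself. Within its bounds the gene also holds the small nucleolar RNA genes Snord14c, Snord14d and Snord14e.

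Hspa1a and Hspa1b encode the stress-inducible cytosolic HSP70 and lie side by side on the minus strand of chromosome 17. Each has 1 exon, Hspa1a from 34969190 to 34972156 and Hspa1b from 34956436 to 34959238. Hspa1a had 1.81 TPM in replicate 1 and 2.19 TPM in replicate 2 (2.00 ± 0.269 TPM), from 109 and 132 counts. Hspa1b was listed at 0.14 TPM in replicate 1 and 0.07 TPM in replicate 2, from 8.14 and 4.24 expected counts. Both genes were thus low in both hearts, and their sum, at 1.95 TPM in replicate 1 and 2.26 TPM in replicate 2, depends little on how reads were divided between them. Hspa8 exceeded that sum 704-fold in replicate 1 and 576-fold in replicate 2.

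How counts were divided between this pair is uncertain. Hspa1a shared 71.2% of its 25-base words and 56.5% of its 100-base words with other genes, and Hspa1b shared 70.1% and 49.9%, most of them with each other. The authors' 95% credibility interval for Hspa1b ran from 0.0419 to 0.324 TPM in replicate 1 and from 0.00995 to 0.227 TPM in replicate 2. For Hspa1a it ran from 1.39 to 2.11 TPM in replicate 1 and from 1.73 to 2.52 TPM in replicate 2. Hspa1a over Hspa1b was 12.9-fold in replicate 1 and 31.3-fold in replicate 2, so the size of that ratio was poorly fixed. Hspa1l, a related gene of the same cluster with 1.78 TPM in replicate 1 and 2.09 TPM in replicate 2, shared 14.1% of the 25-base words of Hspa1a. Gm10501, with 47.5 counts in replicate 1 and 49.1 in replicate 2, also shared 14.1% of them. The gene model Gm20481 overlaps Hspa1a on the other strand by 2225 bases and had 3.13 counts in replicate 1 and 5.94 in replicate 2, and whether strand was used in counting is not given in the sources used here.

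The partners of cytosolic HSP70 among the members were far below Hspa8. Dnajb1, a J-domain protein of the HSP40 family that is itself heat inducible, lies on chromosome 8 from 83608193 to 83612653 on the plus strand, with 3 exons. It had 38.6 TPM in replicate 1 and 39.6 TPM in replicate 2 (39.1 ± 0.728 TPM). Its relative Dnaja1 had 182 TPM in replicate 1 and 165 TPM in replicate 2, so Dnajb1 over Dnaja1 was -2.15 ± 0.13 on the log2 scale (SD, n = 2). Hsph1, the HSP110 protein known as HSP105 that exchanges the nucleotide of HSP70, lies on chromosome 5 from 149614287 to 149636376 on the minus strand, with up to 19 exons. Replicate 1 had 16.3 TPM of it and replicate 2 also had 16.3 TPM, close to the median of 14.2 TPM of the 13635 genes detected in both hearts. Another HSP110 gene, Hspa4, stood at 56.9 TPM in replicate 1 and 51.0 TPM in replicate 2, which put Hsph1 over Hspa4 at -1.72 ± 0.11 on the log2 scale. Both members were therefore the lesser of the pair in each heart.

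The cytosolic HSP90 genes ranked next below Hspa8 by mean gene TPM, although in replicate 1 Hspa5, at 513 TPM, was above Hsp90aa1. Hsp90ab1, the constitutive HSP90 beta, lies on chromosome 17 from 45567775 to 45573271 on the minus strand and had 909 TPM in replicate 1 and 923 TPM in replicate 2 (916 ± 10.2 TPM). Hsp90aa1, the more stress-responsive HSP90 alpha, lies on chromosome 12 from 110690605 to 110702728 on the minus strand and had 477 TPM in replicate 1 and 510 TPM in replicate 2 (494 ± 22.7 TPM). Hsp90ab1 was higher in each heart, 1.904-fold in replicate 1 and 1.812-fold in replicate 2, and the gap was far wider than the spread of either gene. The size of that ratio rested on short transcript models. Over long coding transcripts alone (those at least 70% as long as the longest coding one of the gene, a choice made after seeing the data), Hsp90aa1 had 142 TPM in replicate 1 and 148 TPM in replicate 2. Hsp90ab1 had 689 and 722 TPM on the same basis, and the ratio was 4.84-fold in replicate 1 and 4.87-fold in replicate 2. Other genes held 53.4% of the 25-base words and 38.0% of the 100-base words of Hsp90aa1, among them Gm12346 at 2.72 TPM in replicate 1 and 2.92 TPM in replicate 2, so part of its count is an estimate. For Hsp90ab1 the shares were 21.3% and 0%.

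Hspa5, which encodes BiP, was the abundant member of the endoplasmic reticulum and, with TMM scaling, the one whose level differed most between the hearts among members that averaged 100 counts or more. With spike-in scaling Hspa1a, at -0.33 on the log2 scale, differed more than Hspa5, at 0.21. The Hspa1a value rests on 109 and 132 counts, and its counting interval with TMM scaling, -0.60 to 0.16, holds 0. Hspa5 lies on chromosome 2 from 34771970 to 34777547 on the plus strand, with up to 9 exons. It had 513 TPM in replicate 1 and 421 TPM in replicate 2 (467 ± 65.0 TPM), from 22489 and 18637 counts. Hsp90b1, the HSP90 of the same compartment, had 248 TPM in replicate 1 and 246 TPM in replicate 2, so Hspa5 exceeded it 2.06-fold in replicate 1 and 1.71-fold in replicate 2. Of its 25-base words only 0.258% occurred in other genes, and none of its 100-base words did.

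The mitochondrial chaperonin genes Hspd1 and Hspe1 were expressed at like levels. Hspd1, encoding HSP60, lies on chromosome 1 from 55077835 to 55088243 on the minus strand, and Hspe1, encoding its lid HSP10, from 55088132 to 55091307 on the plus strand, so that their ends overlap by 112 bases head to head. Hspd1 had 292 TPM in replicate 1 and 292 TPM in replicate 2 (292 ± 0.389 TPM). Hspe1 had 262 TPM in replicate 1 and 264 TPM in replicate 2 (263 ± 0.933 TPM). The ratio of Hspd1 over Hspe1 was 1.11-fold in both hearts by gene TPM. Over long coding transcripts alone their ranges overlapped, at 261 and 263 TPM for Hspd1 and 260.3 and 262 TPM for Hspe1. Hspa9, the mitochondrial HSP70, stood at 289 TPM in replicate 1 and 253 TPM in replicate 2, close to Hspd1. Other genes held 57.0% of the 25-base and 23.9% of the 100-base words of Hspd1, and 33.4% and 10.98% of those of Hspe1. Most of the shared Hspe1 words were in AC117239.2 (25.2% and 10.04% of the words of Hspe1), which had no matched gene row here. The authors' posterior SD of the Hspd1 count was small, at 8.78 in replicate 1 and 10.77 in replicate 2, beside 13176 and 13280 counts. For Hspe1 it was 0.29 in replicate 1 and 0.4 in replicate 2, beside 3715 and 3753 counts. The partner gene model Hspd1-ps3 had 3.30 TPM in replicate 1 and 4.27 TPM in replicate 2.

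Which transcripts carried each gene was the same in both hearts. For the 7 members with more than 1 transcript in the tables, the transcript with the largest share of TPM was the same in both hearts in 7 of 7. Hspa8-202 carried 56.0 ± 0.490% of the TPM of Hspa8 (SD, n = 2), and Hspa8-201 carried 19.3 ± 1.07%. Hsp90ab1-201 carried 77.0 ± 1.69% of its gene and Hspa5-202 carried 77.9 ± 0.436%. A single transcript held most of Hspd1 (Hspd1-201, 89.7%), Hsph1 (Hsph1-201, 97.3%) and Hspe1 (Hspe1-201, 99.2%).

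Some short models took a larger share of the TPM of the abundant genes than of their reads. In Hspa8 the retained-intron model Hspa8-204, of 456 nt, held 21.03% of TPM and 4.64% of counts. In Hsp90ab1 the model Hsp90ab1-206, of 703 nt and annotated as a target of nonsense-mediated decay, held 21.02% of TPM and 6.34% of counts. A further decay model, Hspa5-204 of 477 nt, held 18.4% of the TPM of Hspa5 and 3.31% of its counts. In Hsp90aa1 the coding model Hsp90aa1-208, of 711 nt, held 50.4 ± 0.530% of TPM and 22.8% of counts, whereas the longer coding Hsp90aa1-202, of 3281 nt, held 22.4 ± 0.119% of TPM and 52.9% of counts. Hsp90aa1 was the 1 member of these 7 whose leading transcript changed when shares were taken from counts.

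**Figure D2:**
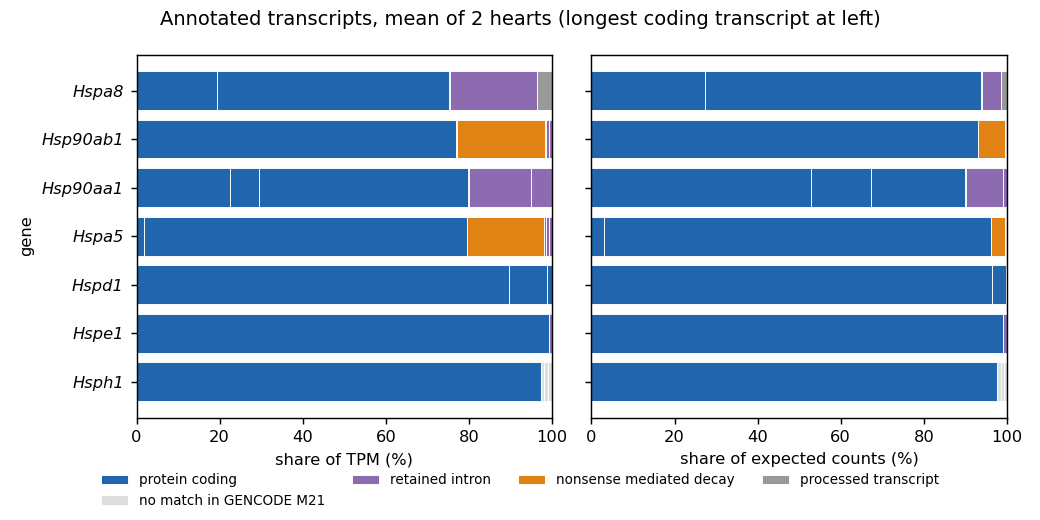
Share of each annotated transcript in the TPM (left) and in the expected counts (right) of its gene, in percent, as the mean of the 2 hearts, for the 7 members with more than 1 transcript, coloured by annotated type with the longest coding transcript at the left. The retained-intron model Hspa8-204 holds a wider bar of TPM (21.03%) than of counts (4.64%).

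Between the hearts the members differed little. A gene was counted as apart when 1 heart was at least 25% above the other (0.32 on the log2 scale) and the mean count was 100 or more. That held for 1 of the 9 members that reached this count (11.1%), and for 8.66% of all 11958 genes that reached it, so the members' share is near the background. The member was Hspa5, higher in replicate 1 at a log2 difference of 0.33 (95% counting interval 0.30 to 0.35), and 3.28% of all genes were as far higher in replicate 1. Lowering the minimum to 10 counts still gave 1 member, beside 21.6% of all genes. Raising it to 1000 counts gave 1 of 8 members, beside 2.2% of all genes. Hspa5 was 0.30 with total-count scaling and 0.32 with the size factors of DESeq2, both just short of the limit, and 0.21 with spike-in scaling.

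The other members that reached 100 counts stayed within the limit. Hsp90ab1 (log2 -0.01), Hsp90aa1 (-0.02) and Dnajb1 (0.01) were nearest to 0, while Hspd1 and Hspe1 were at 0.04 each and Hsph1 at 0.05. Hspa1a was lower in replicate 1, at -0.22, with a counting interval of -0.60 to 0.16 that holds 0. Hspa1b, below the minimum with a mean count of 6.19, had 0.97 with an interval of -0.85 to 3.24, so its difference was not detectable at this depth. The median absolute difference of the 9 members was 0.043 on the log2 scale, against 0.098 for all 11958 genes and 0.074 for the 5717 genes that averaged 1000 counts or more. Neither background was matched to the members by level. The median of mean TPM was 292 for the 9 members, 17.7 for the 11958 genes and 42.9 for the 5717 genes. Signs depend on scaling: 6 of the 9 were positive with TMM scaling, beside 51.1% of all genes, and 2 of the 9 with spike-in scaling, beside 22.3% of all genes, as that scaling moved every gene by -0.11.

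**Figure D3:**
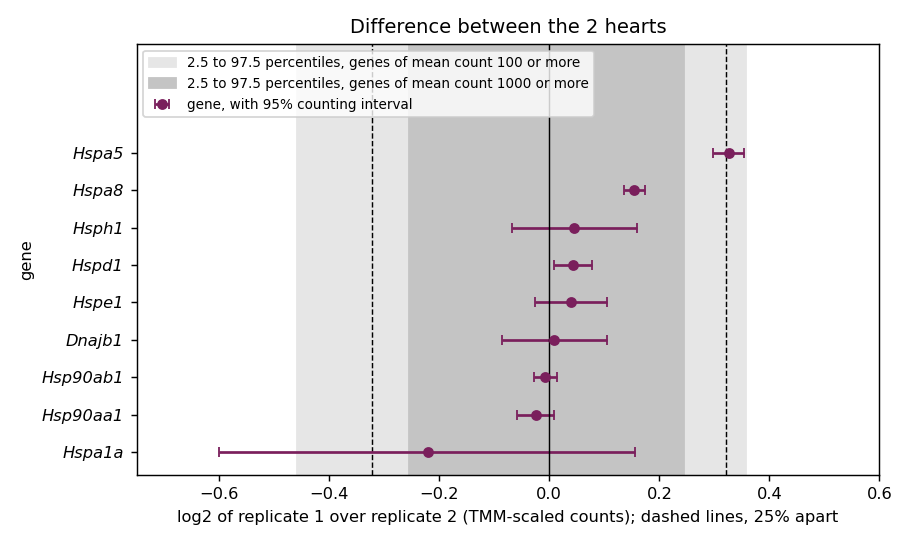
Log2 difference, replicate 1 over replicate 2, of TMM-scaled counts for each member, with 95% counting intervals, dashed lines where the hearts are 25% apart, and shaded bands that span the central 95% of all genes that averaged 100 counts (-0.46 to 0.36) or 1000 counts (-0.25 to 0.24) or more. Hspa5 lies at 0.33, just past the limit and outside the narrower band, and Hspa1b is not drawn since its mean count was 6.19.

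Genes that work with the members were then described by list. In the endoplasmic reticulum list, 21 of 21 genes reached 1 TPM in both hearts, led by Calr (397 ± 15.7 TPM), a lectin chaperone, P4hb (353 ± 7.80 TPM) and Pdia3 (286 ± 38.7 TPM), both disulfide isomerases. Of the 21, 1 was at least 25% higher in replicate 1, beside 3.28% of all genes, and 0 were as far higher in replicate 2, beside 5.38% of all genes. That 1 was Manf, a secreted protein of this compartment, chosen here after its values were seen, at 147 TPM in replicate 1 and 119 TPM in replicate 2 (log2 0.33, 95% counting interval 0.24 to 0.42). The median log2 difference of the list was 0.14, against 0.0038 for all genes, and with TMM scaling 15 of its genes were positive and 6 negative, beside 51.1% positive among all genes. With spike-in scaling 11 were positive and 10 negative, beside 22.3% positive among all genes. Pdia3 was at 0.31 and Calr at 0.14, but P4hb was at -0.03 and Hsp90b1 at 0.07, and the list ran from -0.24 to 0.33. Erythroid markers were also higher in replicate 1, as given above, and epicardial and fibroblast markers (6 of 6 at 1 TPM or more) were lower, at 1321 TPM in replicate 1 and 1515 TPM in replicate 2. Neural markers (3 of 5 at 1 TPM or more) summed to 19.3 TPM in replicate 1 and 32.5 TPM in replicate 2. Whether these markers had a part in the differences of Hspa5 and this list was not tested.

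The remaining lists held no gene that passed this limit in either direction. Other HSP70, HSP110 and HSP90 family genes were all above 1 TPM (11 of 11 matched), led by Hspa9, by Hsp90b1 (247 ± 1.58 TPM) and by Trap1 (93.4 ± 2.36 TPM), the mitochondrial HSP90, and their median difference was 0.07. Other J-domain genes reached 1 TPM in 21 of 22 cases, led by Dnaja1 (174 ± 12.0 TPM), Dnajc19 (100.3 ± 2.52 TPM), of the mitochondrial import motor, and Dnaja2 (93.0 ± 3.30 TPM). The exception was Dnajb13, and the median difference was 0.06.

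Cochaperones of HSP70 and HSP90 reached 1 TPM in 22 of 22 cases. They were led by Ptges3 (222 ± 4.62 TPM), the HSP90 partner p23, Fkbp4 (180 ± 15.8 TPM), a prolyl isomerase of steroid receptor complexes, and Stub1 (169 ± 3.90 TPM), a ubiquitin ligase that binds HSP70 and HSP90. Subunits of prefoldin and of the cytosolic chaperonin TRiC, which folds actin and tubulin, had the highest list median beside the members, at 184 TPM. Pfdn5 (319 ± 17.4 TPM), Cct3 (307 ± 2.78 TPM) and Cct5 (276 ± 3.20 TPM) were on top. The median differences were 0.03 for cochaperones and -0.01 for the chaperonin list.

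Transcription factors that are known to drive heat shock genes were present at modest levels. Hsf1 had 27.7 TPM in replicate 1 and 28.5 TPM in replicate 2. Hsf2 had 16.9 and 17.4 TPM, while Hsf4 and Hsf5 stayed below 1 TPM. Hsbp1, a small protein that binds heat shock factor 1, was higher at 256 ± 7.04 TPM. Mitochondrial chaperones and proteases reached 1 TPM in 11 of 11 cases, with a median level of 54.1 TPM and a median difference of 0.03, and Hspa9, Trap1 and Dnajc19 also belong to that list.

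**Figure D4:**
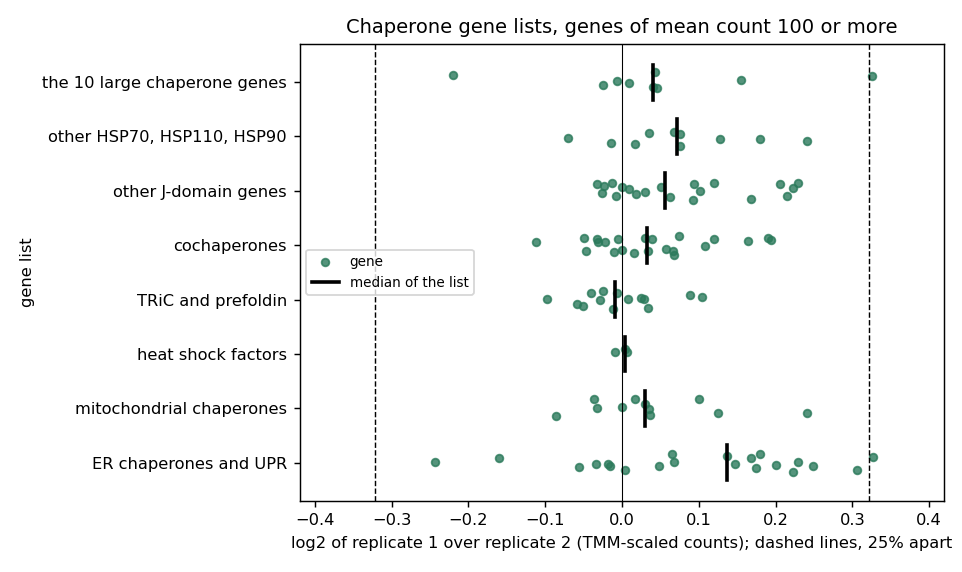
Log2 difference, replicate 1 over replicate 2, of the genes that averaged 100 counts or more in each chaperone list, with 1 point per gene and a bar at the median of the list. The endoplasmic reticulum list has its bar at 0.14, and the other bars lie between -0.01 and 0.07.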

How the data were processed

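Total RNA above 200 nt was extracted from 2 single E14.5 hearts with mirVana, per the labels, with 10 ng per library and added spike-ins. The deposited tables give, per gene and per transcript, expected counts (estimated counts that divide shared reads), TPM scaled to all rows by the authors and FPKM, also made by the authors and used here only as an alternative for ranks and ratios. Posterior means and credibility intervals were deposited with them. The genome was mm10, per the labels, and the columns are named as RSEM names them. Aligner, tool versions and use of strand: not given in the sources used here.

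Gene rows were those with an Ensembl identifier, 43346 of 69691, and 98.0% had a symbol in GENCODE M21 (GRCm38). Rows that name no gene held 3.74% of counts in replicate 1 and 3.55% in replicate 2, nearly all spike-ins, and stayed out of library sizes. Expected counts were rounded to whole numbers and scaled by TMM in edgeR 4.0.16 (R 4.3.3), over genes passing filterByExpr. Differences are log2 of replicate 1 over replicate 2 with a prior count of 0.5. Their 95% Clopper-Pearson intervals cover counting error only and leave out error in dividing shared reads. They treat reads as independent molecules, which reads are not, so they can be too narrow. With 2 libraries of 1 group, no p-value was computed. Genes at least 25% apart with a mean count of 100 or more were counted.

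Words of 25 and 100 bases were compared between transcripts of GENCODE M21 on either strand, and motifs were searched by exact letters in windows of 250 bases before to 50 after each start. The members and lists were chosen with earlier results of these data known. The rule for naming took all members, the 3 genes of highest mean TPM in each list and any list gene that averaged 100 counts and was 1.5-fold apart or more (none); the genes paired with a member are also named. Alternatives were total-count, spike-in and DESeq2 (1.42.0) scaling, other count minimums, posterior means, rescaled TPM, pseudocounts, long coding transcripts and leaving out each heart.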

Additional observations from a re-analysis of the deposited data

How the results depend on the processing

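The count of members at least 25% apart was 1 with TMM scaling, 0 with total-count scaling and 0 with DESeq2 size factors. With spike-in scaling it was again 1, but that member was Hspa1a at -0.33, not Hspa5. Spike-in scaling moved every gene by -0.11, towards the negative limit that Hspa1a passed, and the TMM counting interval of Hspa1a holds 0. Posterior mean counts, a count minimum of 10 and one of 1000 left the count at 1. The count of endoplasmic reticulum genes at least 25% higher in replicate 1, with alternatives chosen after seeing the data, was 1 with TMM, DESeq2 size factors and posterior means, 0 with total-count scaling and 0 with spike-in scaling. In both counts the called gene lay within 0.01 of the limit of 0.32 on the log2 scale. The share of all genes past the limit was computed with TMM scaling only. Both counts with other scalings or posterior means therefore have no background beside them. Over all alternatives, the single-gene differences moved by more than their counting interval in 14 of 60 cases, with 9 changes of sign, none in a member past the limit. Levels moved by more than 1 SD in 9 of 10 cases with TPM rescaled without spike-ins, haemoglobin and mitochondrially encoded genes. Ranks among the members moved in 4 of 20 cases, all over long coding transcripts, where Hspa5 was the third, Hspd1 the fourth, Hspe1 the fifth and Hsp90aa1 the sixth. Leaving out a heart moves a mean of 2 values by less than 1 SD by construction, so those cases are not counted here. Ratios moved in 4 of 28 cases: Hsp90ab1 over Hsp90aa1 over long coding transcripts, Hspd1 over Hspe1 with posterior means, and both ratios with Hspa1b when 1 TPM was added. The 100-base words, also added after seeing the data, lowered the shared share of each member. Depth limits Hspa1b, with a mean count of 6.19, and with 1 heart left out there is no difference to compute. No paired analysis was possible because there is 1 group.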
